A study of Mus musculus with 48 samples.

Results

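The comparison described here is duodenum at week 3 against duodenum at week 2, the step over which mouse pups pass from milk to solid food. Its members are the 6 libraries that the labels name as duodenum of those ages, 3 per age, out of 48 libraries in the series. The series sampled C57BL/6J mice of both sexes at 8 ages from birth to week 4. Each duodenal sample was a 2 cm length of bowel taken directly below the pylorus, described in the labels as whole thickness, and its total RNA was sequenced on an Illumina NovaSeq instrument. All groups were untreated, and the labels report that pups were housed with the dam up to day 21 and were then given chow, so the week 2 mice were suckling and the week 3 mice stood at the age of separation. Whether the week 3 mice had eaten chow alone is not given in the sources used here. The housing is worded in the labels in a way that leaves unclear whether the colony was germ-free. The labels number samples within an age but do not say that each came from a separate animal. The spread between samples may therefore be technical in part. The p-values rest on that spread as estimated over all 48 libraries, not only these 6.

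In suckling mice the enterocyte, the absorptive cell of the villus, takes up whole milk proteins by endocytosis, carries maternal IgG across with the neonatal Fc receptor, splits lactose, and makes ketone bodies and arginine from a fat-rich, arginine-poor diet. At weaning the epithelium is replaced by cells that digest starch, sucrose and peptides at the brush border. The transcription factor Blimp1, encoded by Prdm1, is known to hold back the adult programme until then, and glucocorticoids are known to advance it.

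Total estimated counts per library ranged from 27547646 to 59811501, and 24094 to 26658 genes had a count. Mitochondrial transcripts made up 16.5% to 23.7% of counts, with the ages overlapping. Spearman correlations of log2 levels were 0.979 to 0.986 between libraries of an age and 0.947 to 0.962 between ages, and every pair of libraries differed. Levels are given in CPM, a gene's share of the scaled library expressed per megacount. The epithelial gene Epcam was at 1387, 1327 and 1287 CPM at week 2, then 1238, 1532 and 1188 CPM at week 3. Gata4, a transcription factor of proximal bowel, was at 146, 115 and 123 CPM at week 2, then 132, 119 and 121 CPM at week 3. Both were present in all 6 libraries, and the ileal bile acid binding gene Fabp6 was at or under 0.49 CPM. The smooth muscle genes Acta2 (2.41 ± 0.488 CPM at week 2 and 2.82 ± 1.04 at week 3, SD, n = 3 each) and Myh11 (1.27 ± 0.37 CPM at week 2 and 2.61 ± 0.634 at week 3, SD, n = 3 each) were low for tissue labelled as whole thickness. The Y-linked gene Ddx3y marked 1 male library at week 2 and 2 at week 3, so sex was not balanced between the ages. Pdx1, a gene of the upper duodenum, stood at 18.05, 3.99 and 13.7 CPM at week 2, then 19.97, 18.3 and 10.3 CPM at week 3, lowest in week 2 sample 2, and the position along the bowel that it may mark was not tested.

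A gene was called where the Benjamini-Hochberg adjusted p of edgeR's quasi-likelihood test was below 0.05. Of 20901 genes tested, 3220 were called, which is 15.4%; 1344 rose from week 2 to week 3 (6.43%) and 1876 fell (8.98%). Changes over 2-fold were made by 828 genes that rose and 1140 that fell (9.42%), and changes over 8-fold by 196 genes that rose and 233 that fell, together 2.05% of genes tested. The count of called genes was 5437 without the 8 libraries of days 4 and 6 that the authors' normalized tables leave out, and 5063 in a fit of the 6 libraries alone. Day 6 sample 3 of each region, among those 8 and kept in the fit used here, went against its region label. Gata4 was at 112, 135 and 44.95 CPM in the libraries labelled duodenum day 6 and at 35.99, 34.2 and 107 CPM in those labelled ileum day 6, in the order of their numbers. These libraries enter the comparison through the count filter, the scaling and the shared estimate of spread, and day 6 sample 3 is also in the values plotted over the duodenal ages. The median log2 fold change over all genes tested was 0.018. The 3 libraries of an age did not overlap with those of the other age in 8449 genes, 40.4% of those tested. Of the 3220 called genes 3170 did not overlap, so a lack of overlap adds little to a call. The genes named for the largest folds were picked to have no overlap. In bulk tissue, fewer cells of a type and less RNA per cell cannot be told apart, and this holds for every level below. The gene groups below come from 38 lists of 587 genes, chosen with earlier results of these data known. The share called was 92.3% of foreign compound genes, 76.9% of brush border peptidases, 75% of disaccharidases and 70.6% of suckling uptake genes. It was 69.6% of interferon-stimulated, 68.8% of hexose, 58.3% of arginine and 57.9% of ketogenesis genes. Of all genes it was 15.4%.

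**Figure D1:**
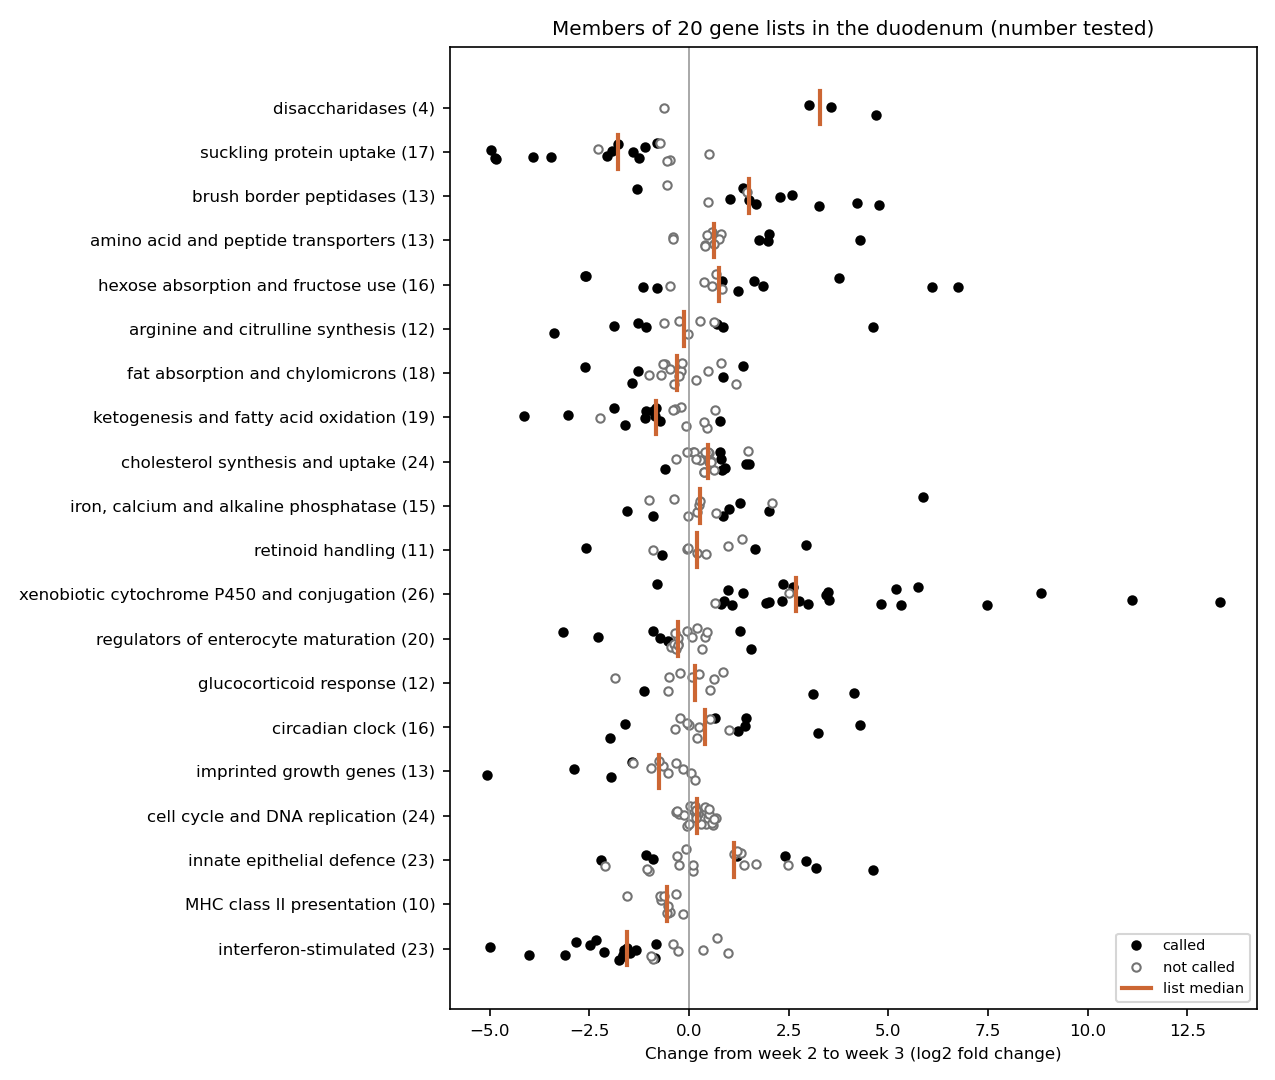
Change from week 2 to week 3 in the duodenum (log2 fold change, horizontal axis) for each tested member of 20 lists of genes, with called members filled, others open and the list median as a bar. Foreign compound genes lie almost wholly to the right (median 2.69), suckling uptake genes (median -1.77) and interferon-stimulated genes (median -1.56) to the left, and cell cycle genes stay near 0.

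Genes for taking up milk proteins fell. Of 17 genes of endocytic uptake and lysosomal digestion tested, 12 fell, 0 rose and 5 were not called, with a median log2 fold change of -1.77 against 0.018 over all genes. Fcgrt, which encodes the neonatal Fc receptor that carries milk IgG across the epithelium (chromosome 7, 45092993 to 45103822, GRCm38), stood at 5102, 2623 and 3004 CPM at week 2, then 156, 92.4 and 92.5 CPM at week 3 (log2 fold change -4.98 ± 0.36 SE, edgeR adjusted p = 3.32e-13). Every week 3 library lay far below every week 2 library, and week 2 sample 1 was the highest. Dab2, an adaptor that gathers endocytic receptors into coated pits, was at 579, 434 and 425 CPM at week 2, then 25.1, 10.7 and 13.5 CPM at week 3 (log2 fold change -4.86 ± 0.62 SE, edgeR adjusted p = 1.7e-07). Ctsl, a lysosomal cysteine protease, was at 2061, 1806 and 1721 CPM at week 2, then 85.2, 56.4 and 54.9 CPM at week 3 (log2 fold change -4.83 ± 0.61 SE, edgeR adjusted p = 1.75e-07). Both fell in all 3 week 3 libraries to a small part of any week 2 value. The asparaginyl protease Lgmn went from 769.7 ± 24.9 to 70.1 ± 33.1 CPM (SD, n = 3 each).

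Receptor subunits of the same uptake route did not all follow. Cubn, the docking receptor cubilin for intrinsic factor and other proteins, stood at 605, 505 and 519 CPM at week 2, then 899, 714 and 708 CPM at week 3 and was not called (log2 fold change 0.51 ± 0.48 SE, edgeR adjusted p = 0.538). All 3 week 3 values of Cubn lay above all week 2 values, although its adaptor Dab2 had dropped. Its membrane partner Amn was not called either (53.3, 48.1 and 42.8 CPM at week 2, then 37.5, 35.2 and 30.9 CPM at week 3; log2 fold change -0.48 ± 0.46 SE, edgeR adjusted p = 0.554). In the fit of the 6 libraries alone, 16 members of the list fell and 1 rose. The member that rose there was Cubn (log2 fold change 0.49, edgeR adjusted p = 0.0259).

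Other suckling-type genes were among the 10 largest falls by fold in genes whose log2 CPM averaged 3 or more. Folr1, encoding folate receptor alpha, was at 275, 255 and 229.9 CPM at week 2, then 4.69, 0.84 and 1.24 CPM at week 3 (log2 fold change -6.76 ± 0.74 SE, edgeR adjusted p = 9.15e-09). Mamdc4, the apical endosomal glycoprotein endotubin of suckling enterocytes, was at 765, 684 and 628 CPM at week 2, then 45.5, 4.62 and 8.48 CPM at week 3 (log2 fold change -5.14 ± 0.78 SE, edgeR adjusted p = 4.73e-06). Meltf, the iron-binding membrane protein melanotransferrin, was at 740.4, 878 and 865 CPM at week 2, then 31.9, 1.37 and 2.96 CPM at week 3 (log2 fold change -6.09 ± 0.97 SE, edgeR adjusted p = 1.26e-05). In each of the 3 genes week 3 sample 1 held the most and sample 2 the least of the week 3 libraries, and no week 3 library came near the week 2 range. Gask1b, a Golgi-associated kinase gene, the progestin and adipoQ receptor family gene Paqr9 and Lect2, a secreted chemotaxin gene, fell from 86.9 ± 4.37, 693 ± 109.5 and 144 ± 20.02 to 1.7 ± 1.43, 17.2 ± 4.15 and 5.36 ± 1.84 CPM (SD, n = 3 each).

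Genes for digesting starch and sugars other than lactose rose. Of the 4 disaccharidase genes, Sis, Mgam and Treh rose and Lct was not called, with a list median of 3.29. Sis, the sucrase-isomaltase gene (chromosome 3, 72888557 to 72967863, GRCm38), was at 154, 117 and 126 CPM at week 2, then 3816, 3459 and 3002 CPM at week 3 (log2 fold change 4.69 ± 0.41 SE, edgeR adjusted p = 3.7e-11). Mgam, encoding the maltase-glucoamylase that finishes starch digestion, was at 377, 435 and 403 CPM at week 2, then 6128, 4369 and 3898 CPM at week 3 (log2 fold change 3.57 ± 0.31 SE, edgeR adjusted p = 2.42e-11). Treh, the trehalase gene, was at 46.1, 22.9 and 30.01 CPM at week 2, then 259, 324 and 221 CPM at week 3 (log2 fold change 3.02 ± 0.55 SE, edgeR adjusted p = 9.48e-05). In all 3 genes the lowest week 3 library exceeded the highest week 2 library severalfold.

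Lct, which encodes lactase, the enzyme that splits milk sugar (chromosome 1, 128284756 to 128328318, GRCm38), was at 3082, 2133 and 2319.7 CPM at week 2, then 1613, 1715 and 1512 CPM at week 3, a log2 fold change of -0.64 ± 0.45 SE that did not pass the test (edgeR adjusted p = 0.394). The week 3 values were lower than every week 2 value but by a small margin, and week 2 sample 1 stood apart as the highest. The adjusted p of Lct ranged from 0.0139 to 0.649 over the alternatives, and the lowest came from the fit of the 6 libraries alone. Duodenal Lct averaged 994 ± 91.6 CPM at day 8 and 2361 ± 1017 CPM at week 4, so week 3 lay inside the range of the other ages.

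**Figure D2:**
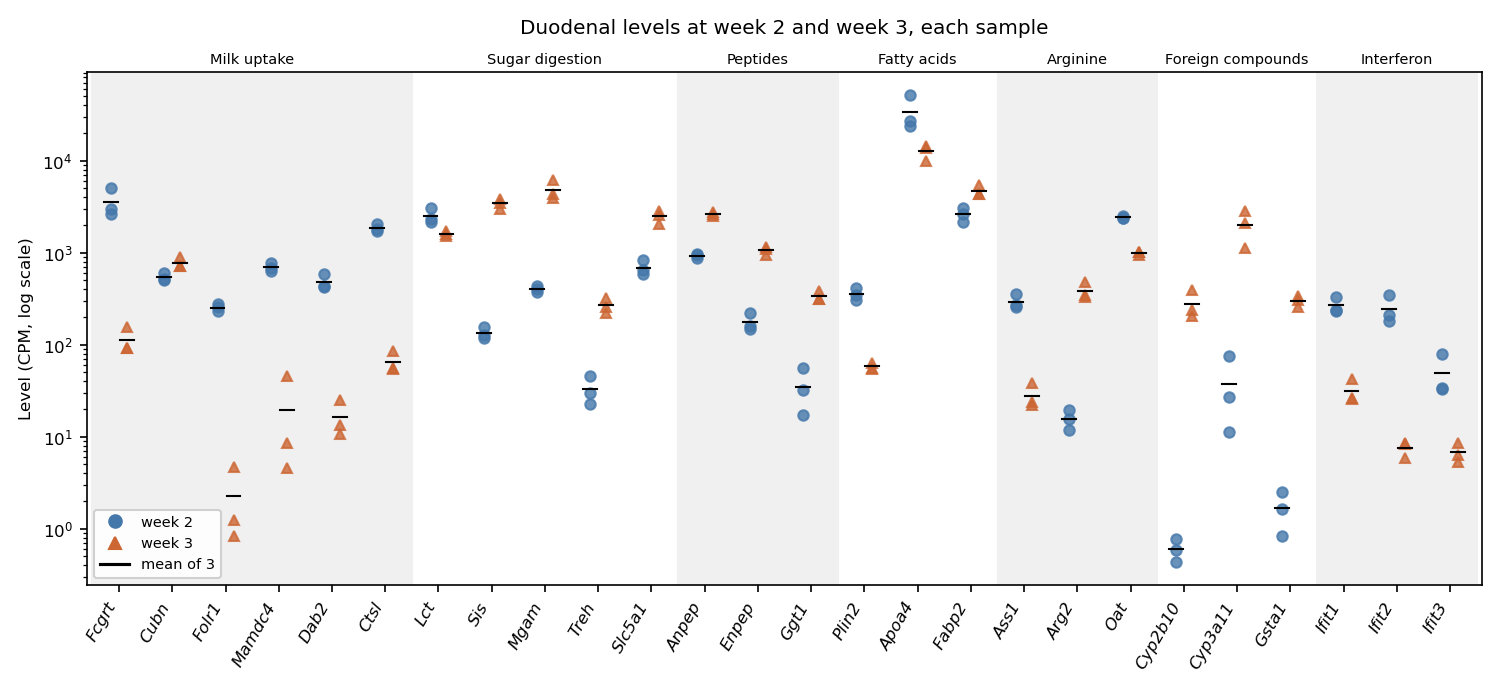
Level of each gene in CPM (log scale) in the 3 week 2 libraries (circles) and 3 week 3 libraries (triangles) of duodenum, with the mean of 3 as a line, grouped by role. Fcgrt, Folr1, Mamdc4 and Plin2 drop with no overlap, Sis, Mgam, Arg2, Cyp2b10 and Gsta1 rise with no overlap, and Lct shifts little.

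Genes of sugar uptake and use moved in both directions. Of 16 genes of hexose absorption and fructose use tested, 7 rose, 4 fell and 5 were not called, with a median of 0.75. Slc5a1, encoding the sodium-glucose cotransporter SGLT1 of the brush border, was at 823, 589 and 652 CPM at week 2, then 2847, 2572 and 2068 CPM at week 3 (log2 fold change 1.86 ± 0.28 SE, edgeR adjusted p = 3.62e-06). Its relatives Slc5a4a and Slc5a4b, members of the SGLT3 group, went from 0.373 ± 0.168 and 1.24 ± 0.325 to 39.7 ± 7.22 and 85.5 ± 14.3 CPM (SD, n = 3 each). The fructose transporter gene Slc2a5, GLUT5, went from 30.6 ± 13.1 to 95.3 ± 6.005 CPM (log2 fold change 1.64 ± 0.41 SE, edgeR adjusted p = 0.00352), and Khk, whose product ketohexokinase starts fructose breakdown, from 69.7 ± 18.9 to 164 ± 26.1 CPM. The 4 genes that fell were Fbp1, G6pc and Pck1, which encode enzymes of glucose synthesis, and Txnip, an inhibitor of glucose uptake. Fbp1 stood at 596, 358 and 402 CPM at week 2, then 80.7, 86.9 and 53.9 CPM at week 3 (log2 fold change -2.61 ± 0.30 SE, edgeR adjusted p = 2.06e-08), with every week 3 library below every week 2 library. G6pc and Pck1 went from 213 ± 40.8 and 1439 ± 458 to 35.4 ± 6.18 and 646 ± 165 CPM. Atp1b1, a subunit gene of the sodium pump that drives sodium-coupled uptake, rose from 683 ± 27.8 to 1972 ± 160.3 CPM (edgeR adjusted p = 1.85e-05).

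Most genes of brush border peptide digestion rose. Of 13 peptidase genes tested 9 rose, Mep1a fell and 3 were not called, with a median of 1.505. Anpep, aminopeptidase N, was at 964, 948 and 871 CPM at week 2, then 2523, 2757 and 2614 CPM at week 3 (log2 fold change 1.505 ± 0.25 SE, edgeR adjusted p = 2.09e-05). Enpep, the acidic aminopeptidase A, was at 149, 220.3 and 161 CPM at week 2, then 1163, 1084 and 939 CPM at week 3 (log2 fold change 2.59 ± 0.62 SE, edgeR adjusted p = 0.00257). Dpep1, a dipeptidase, was at 9.93, 6.54 and 6.74 CPM at week 2, then 196, 264 and 166 CPM at week 3 (log2 fold change 4.75 ± 0.35 SE, edgeR adjusted p = 4.44e-13). All 3 genes were higher in every week 3 library than in any week 2 library. Ggt1, which breaks down glutathione at the cell surface, went from 34.9 ± 19.2 to 337 ± 42.8 CPM (log2 fold change 3.27 ± 0.33 SE, edgeR adjusted p = 8.35e-10).

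Tmprss15, encoding the enteropeptidase that activates pancreatic trypsinogen, was at 13.01, 0.254 and 7.35 CPM at week 2, then 147, 159.7 and 80.5 CPM at week 3 (log2 fold change 4.23 ± 1.07 SE, edgeR adjusted p = 0.0048). Week 2 sample 2, the library lowest in Pdx1, was also the lowest in Tmprss15. The call was lost in the fit of the 6 libraries alone, and adjusted p ranged from 0.00126 to 0.0556 over the alternatives. The meprin subunit gene Mep1a moved the other way, from 374 ± 56.9 to 150.2 ± 25.4 CPM (log2 fold change -1.32 ± 0.40 SE, edgeR adjusted p = 0.0208), while its partner Mep1b rose from 244 ± 5.9 to 626 ± 83.1 CPM. The Mep1a call was lost without week 2 sample 1, week 3 sample 2 or week 3 sample 3.

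Of 13 amino acid and peptide transporter genes tested, 4 rose and 0 fell, with a median of 0.63. The calls were 30.8% of the list, against 15.4% of all genes. The fit of the 6 libraries alone called 11 risen and 2 fallen, and the fit without the 8 libraries of days 4 and 6 called 6 risen. Slc15a1, the di- and tripeptide carrier PEPT1, was at 146, 95.7 and 97.4 CPM at week 2, then 422, 560.1 and 377 CPM at week 3 (log2 fold change 2.01 ± 0.35 SE, edgeR adjusted p = 3.57e-05). Slc7a15, a member of an amino acid carrier family, was at 9.15, 9.33 and 5.69 CPM at week 2, then 141, 168 and 161 CPM at week 3 (log2 fold change 4.29 ± 0.56 SE, edgeR adjusted p = 3.67e-07). Slc6a20a, a proline carrier, went from 47.6 ± 17.7 to 188 ± 47.2 CPM. In both Slc15a1 and Slc7a15 each week 3 library was above each week 2 library. Slc6a19, the main neutral amino acid carrier B0AT1 of the brush border, went from 343 ± 58.6 to 601 ± 103 CPM and was not called (log2 fold change 0.81 ± 0.33 SE, edgeR adjusted p = 0.093).

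Genes of ketone body synthesis fell. Of 19 genes of ketogenesis and fatty acid oxidation tested, 10 fell and 1 rose, with a median of -0.82. Acat1 and Bdh1, the first and last steps of the ketone pathway, went from 624 ± 103 and 338 ± 67.6 to 168 ± 17.1 and 186 ± 41.6 CPM (SD, n = 3 each). Cpt1a, which admits long-chain fatty acids to the mitochondrion, went from 482 ± 25.97 to 230.4 ± 28.9 CPM (log2 fold change -1.07 ± 0.17 SE, edgeR adjusted p = 8.03e-06). Ppara, encoding the fatty acid sensor PPAR alpha, was the member that rose, from 23.04 ± 3.35 to 39.3 ± 10.1 CPM (log2 fold change 0.77 ± 0.21 SE, edgeR adjusted p = 0.00804), and that call was lost when week 2 sample 3, week 3 sample 1 or week 3 sample 2 was left out.

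Fat absorption genes moved in both directions. Of 18 tested, 3 fell and 2 rose, with a median of -0.31. The calls were 27.8% of the list, against 15.4% of all genes. Without the 8 libraries of days 4 and 6 there were 6 falls and 4 rises. Apoa4, a chylomicron apolipoprotein and the gene with the largest loss of CPM, was at 51196, 23975 and 27180.1 CPM at week 2, then 14548, 13774 and 10017 CPM at week 3 (log2 fold change -1.42 ± 0.40 SE, edgeR adjusted p = 0.0108). Its call was lost without week 2 sample 1, the highest library, or without week 3 sample 3, and adjusted p ranged from 0.000496 to 0.131 over the alternatives. Plin2, a coat protein of lipid droplets, was at 413, 302 and 349.95 CPM at week 2, then 56.4, 54.5 and 63.4 CPM at week 3 (log2 fold change -2.61 ± 0.22 SE, edgeR adjusted p = 1e-11), and no libraries overlapped. The triglyceride synthesis genes Dgat1 and Dgat2 moved oppositely. Dgat1 rose from 151 ± 29.9 to 385 ± 53.1 CPM (log2 fold change 1.35 ± 0.23 SE, edgeR adjusted p = 3.67e-05). Dgat2 fell from 1021 ± 201 to 423 ± 61.6 CPM (log2 fold change -1.27 ± 0.24 SE, edgeR adjusted p = 0.000166). Fabp2, the intestinal fatty acid binding protein, was at 3050.0, 2169 and 2623 CPM at week 2, then 4294, 5469.6 and 4371 CPM at week 3 (log2 fold change 0.85 ± 0.25 SE, edgeR adjusted p = 0.0149), and its call was lost without week 2 sample 2 or week 3 sample 2. Apob, the structural protein of chylomicrons, was not called (9766, 7783 and 8623 CPM at week 2, then 5762, 5828 and 4492 CPM at week 3; log2 fold change -0.70 ± 0.36 SE, edgeR adjusted p = 0.207).

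Genes of the arginine pathway moved in both directions. Of 12 genes tested, 4 fell and 3 rose, with a median of -0.14. Ass1, argininosuccinate synthase, which makes arginine from citrulline (chromosome 2, 31470270 to 31520670, GRCm38), was at 357, 255 and 270.1 CPM at week 2, then 38.7, 21.8 and 23.5 CPM at week 3 (log2 fold change -3.39 ± 0.40 SE, edgeR adjusted p = 4.3e-08). Arg2, the mitochondrial arginase that breaks arginine down (chromosome 12, 79130788 to 79156301, GRCm38), was at 19.6, 11.9 and 15.7 CPM at week 2, then 348, 474 and 331 CPM at week 3 (log2 fold change 4.61 ± 0.76 SE, edgeR adjusted p = 2.09e-05). The lowest library of the higher age exceeded the highest of the lower by a wide margin in both, in opposite directions. Aldh18a1 and Oat, which lead from glutamate towards ornithine, went from 670.4 ± 93.2 and 2441 ± 70.4 to 182 ± 8.25 and 999 ± 40.9 CPM and both fell. Asl, the step after Ass1, fell from 42.2 ± 4.89 to 20.04 ± 1.95 CPM. Cps1, the mitochondrial carbamoyl phosphate enzyme, was not called (1799, 2714 and 2668 CPM at week 2, then 1523, 1452 and 1652 CPM at week 3; log2 fold change -0.63 ± 0.25 SE, edgeR adjusted p = 0.0832). The other 2 rises were Otc (95.3 ± 7.9 to 156 ± 20.2 CPM) and Prodh (15.7 ± 1.32 to 28.4 ± 5.78 CPM), and leaving out any single library brought the number of rises from 3 down to 1 or 2.

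Genes that handle foreign compounds rose in the largest share of members among the 38 lists. Of 26 genes of cytochrome P450 oxidation, conjugation, esterases and export tested, 23 rose and 1 fell, with a median of 2.69, also when genes at 0 counts at week 2 entered at their lower bound. Cyp2b10, a P450 gene known as a target of the receptor CAR, was at 0.78, 0.436 and 0.591 CPM at week 2, then 204, 390.3 and 236 CPM at week 3 (log2 fold change 8.83 ± 1.00 SE, edgeR adjusted p = 1.11e-07), the largest fold among called genes whose log2 CPM averaged 3 or more. Cyp3a11, a P450 gene known as a target of the receptor PXR (chromosome 5, 145854607 to 145879854, GRCm38), was at 75.02, 11.2 and 26.8 CPM at week 2, then 2094, 2817 and 1134 CPM at week 3 (log2 fold change 5.74 ± 0.86 SE, edgeR adjusted p = 4.73e-06). Gsta1, a glutathione transferase, was at 2.52, 0.835 and 1.64 CPM at week 2, then 334, 308 and 254 CPM at week 3 (log2 fold change 7.48 ± 0.66 SE, edgeR adjusted p = 8.39e-11). No libraries of the 2 ages overlapped in these 3 genes, which the rule that named them required. For Cyp3a11 the week 2 libraries themselves differed, with sample 2 lowest and sample 1 highest.

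Cyp2c29 and Cyp1a1, the latter known as a target of the aryl hydrocarbon receptor, had 0 counts in all 3 week 2 libraries. At week 3 Cyp2c29 was at 31.9, 49.5 and 33.4 CPM and Cyp1a1 at 4.4, 6.23 and 14.2 CPM. Against a limit of 3 counts over the week 2 group, Cyp2c29 was at least 1294-fold higher and Cyp1a1 at least 281-fold higher. Both rose by edgeR (adjusted p = 2.13e-10 and 2.36e-06). The exporter gene Abcb1a rose from 46.6 ± 8.21 to 317 ± 72.1 CPM and the glutathione transferase genes Gstm1 and Gstm3 from 15.4 ± 0.128 and 12.99 ± 0.516 to 166 ± 40.8 and 368 ± 54.2 CPM. Abcg2, another exporter gene, fell from 196 ± 9.5 to 114 ± 18.7 CPM (log2 fold change -0.79 ± 0.21 SE, edgeR adjusted p = 0.00639), a call that was lost without week 3 sample 3. Several of these genes have near-identical relatives, among which estimated counts divide shared reads by a model.

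Mineral handling changed at single genes. Of 15 genes tested 5 rose and 2 fell, with a median of 0.28. The calls were 46.7% of the list, against 15.4% of all genes. The rises numbered 3 without week 2 sample 2 or 3 or week 3 sample 1 or 2, and the falls 0 without week 2 sample 1 or week 3 sample 2 or 3. Without the count filter there were 3 rises and 0 falls. Akp3, a duodenal alkaline phosphatase, was at 30.2, 0.835 and 15.3 CPM at week 2, then 1333, 1047 and 338 CPM at week 3 (log2 fold change 5.87 ± 1.09 SE, edgeR adjusted p = 0.000146), and no libraries overlapped. Within each age the library lowest in Pdx1, week 2 sample 2 or week 3 sample 3, was also the lowest in Akp3. The same libraries were lowest in Tmprss15 and Cyp3a11, and in S100g and Slc40a1 below. The part of this in the results was not tested. Vdr, the vitamin D receptor gene, was at 89.98, 127 and 119 CPM at week 2, then 277, 292 and 253 CPM at week 3 (log2 fold change 1.29 ± 0.25 SE, edgeR adjusted p = 0.000241), higher in every week 3 library. S100g, its known target that binds calcium in the cytosol, was at 136, 95.999 and 155 CPM at week 2, then 615, 699.7 and 241 CPM at week 3 (log2 fold change 2.01 ± 0.67 SE, edgeR adjusted p = 0.0371). The S100g call was lost under 9 of 17 alternatives, among them leaving out week 2 sample 1, 2 or 3 or week 3 sample 1 or 2, and its adjusted p ranged from 0.00671 to 0.143. Slc40a1, the iron exporter ferroportin, fell from 936 ± 277 to 321 ± 157 CPM (log2 fold change -1.54 ± 0.47 SE, edgeR adjusted p = 0.0184), a call lost under 6 of 17 alternatives, among them leaving out week 2 sample 1 or week 3 sample 2 or 3 (adjusted p 0.00643 to 0.129). The brush border iron carrier Slc11a2, DMT1, was not called (445, 285 and 393 CPM at week 2, then 367, 113 and 75.4 CPM at week 3; log2 fold change -1.01 ± 0.41 SE, edgeR adjusted p = 0.0954).

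Of 11 retinoid genes tested, 2 rose and 2 fell, with a median of 0.21. The calls were 36.4% of the list, against 15.4% of all genes. Lrat, which esterifies retinol for storage and transport, was at 247, 207 and 248 CPM at week 2, then 34.1, 41.3 and 41.7 CPM at week 3 (log2 fold change -2.58 ± 0.36 SE, edgeR adjusted p = 1.1e-06). Aldh1a1, which makes retinoic acid, was at 61.1, 65.8 and 49.9 CPM at week 2, then 417, 525 and 404 CPM at week 3 (log2 fold change 2.93 ± 0.41 SE, edgeR adjusted p = 9e-07). The groups did not overlap in either gene. The other 2 calls, Rdh7 (31.9 ± 7.4 to 100.1 ± 20.8 CPM) and Dhrs3 (56.7 ± 10.9 to 35.4 ± 2.51 CPM), were less stable. Rdh7 lost its call when any one of the 6 libraries was left out, and Dhrs3 without week 2 sample 1 or week 3 sample 1. Rbp2, the cellular retinol binding protein of the enterocyte, was not called (2029 ± 372 and 1989.9 ± 301 CPM; log2 fold change -0.03 ± 0.35 SE, edgeR adjusted p = 0.975).

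Among 24 genes of cholesterol synthesis and uptake tested, 6 rose and 1 fell, with a median of 0.48. The calls were 29.2% of the list, against 15.4% of all genes. Without the 8 libraries of days 4 and 6 there were 10 rises. Msmo1, a sterol demethylation step, was at 21.7, 33.3 and 30.2 CPM at week 2, then 85.5, 80.9 and 61.9 CPM at week 3 (log2 fold change 1.42 ± 0.25 SE, edgeR adjusted p = 3.77e-05). Msmo1 was higher in every week 3 library than in any week 2 library. The member that fell was Insig1, which retains the sterol sensor in the endoplasmic reticulum (98.1 ± 6.91 to 64.3 ± 5.35 CPM), a call lost when any one of the 6 libraries was left out.

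Regulators of the epithelium were called in both directions. Of 20 genes tested 5 fell and 2 rose, against 8.98% and 6.43% of all genes, with a median of -0.28. Prdm1, encoding Blimp1 (chromosome 10, 44437174 to 44528558, GRCm38), was at 109.6, 83.8 and 90.5 CPM at week 2, then 10.95, 11.8 and 9.15 CPM at week 3 (log2 fold change -3.16 ± 0.29 SE, edgeR adjusted p = 1.78e-10). The 3 week 3 values were all a small fraction of the week 2 values. Hnf4g, a nuclear receptor gene of villus enterocytes, and Klf4, a gene of differentiated epithelium, rose from 135 ± 8.52 and 91.02 ± 25.01 to 327 ± 31.97 and 269.8 ± 45.2 CPM (edgeR adjusted p = 0.000258 and 0.000167). Hnf4a, Cdx2 and Gata4, which mark intestinal and proximal identity, were not called. Hnf4a was at 754 ± 74.5 and 622 ± 39.1 CPM at the 2 ages, Cdx2 at 132 ± 17.6 and 109 ± 10.3 CPM, and Gata4 at 128 ± 16.4 and 124 ± 7.01 CPM. Leaving out week 3 sample 2 or sample 3 reduced the falls from 5 to 3.

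Among 12 glucocorticoid-responsive genes tested 2 rose and 1 fell, with a median of 0.15 and log2 fold changes from -1.84 to 4.15. Calls made up 25% of the list, against 15.4% of all genes. At an unadjusted edgeR p under 0.05, 2 rose and 4 fell. Leaving out the 8 libraries absent from the authors' normalized tables gave 3 rises and 3 falls. Limma gave 3 rises and 4 falls. Fkbp5, a chaperone gene widely used as a marker of glucocorticoid receptor activity, was at 5.39, 7.33 and 7.13 CPM at week 2, then 168, 109.7 and 74.7 CPM at week 3 (log2 fold change 4.15 ± 0.41 SE, edgeR adjusted p = 8.41e-10). Zbtb16, another known target, was at 0.39, 0.182 and 0.153 CPM at week 2, then 2.93, 2.42 and 0.799 CPM at week 3 (log2 fold change 3.11 ± 0.87 SE, edgeR adjusted p = 0.0101), and its call was lost without week 2 sample 2 or 3. Both were higher in every week 3 library. The targets Tsc22d3 (90.6 ± 9.08 and 64.2 ± 6.65 CPM) and Per1 (33.9 ± 3.34 and 28.9 ± 10.5 CPM) were not called, nor was the receptor gene Nr3c1 (169.6, 187 and 185 CPM at week 2, then 194, 173 and 201 CPM at week 3; log2 fold change 0.07 ± 0.21 SE, edgeR adjusted p = 0.878). The third called gene, Ddit4, fell from 36.6 ± 3.22 to 16.6 ± 5.17 CPM, a call lost under 9 of 17 alternatives, among them leaving out week 2 sample 1, 2 or 3 or week 3 sample 2 or 3.

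Over the duodenal ages, Fkbp5 averaged 195 ± 101 CPM at day 0, 11.5 ± 0.922 CPM at day 8 and 12.3 ± 2.87 CPM at week 4, so the week 3 level was bounded by low values on both sides. Zbtb16 averaged 11.3 ± 10.2 CPM at day 0 and 0.246 ± 0.244 CPM at week 4. The pair shared the same 2 high ages.

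Clock genes changed in 8 of 16 members tested, 6 rising and 2 falling, with a median of 0.40. The calls were 50% of the list, against 15.4% of all genes. Nr1d1, encoding the clock repressor REV-ERB alpha, was at 5.57, 3.16 and 3.28 CPM at week 2, then 45.8, 37.98 and 28.8 CPM at week 3 (log2 fold change 3.23 ± 0.27 SE, edgeR adjusted p = 9.58e-12). Hlf, an output gene of the clock, was at 0.709, 0.871 and 0.919 CPM at week 2, then 19.6, 17.2 and 12.1 CPM at week 3 (log2 fold change 4.28 ± 0.58 SE, edgeR adjusted p = 5.57e-07). Per2, a negative arm gene, was at 74.7, 77.99 and 74.8 CPM at week 2, then 22.1, 26.05 and 26.5 CPM at week 3 (log2 fold change -1.61 ± 0.30 SE, edgeR adjusted p = 0.000122). Nr1d1 and Hlf were higher and Per2 lower in every week 3 library. Arntl, the core activator BMAL1, went from 18.6 ± 0.57 to 29.5 ± 2.51 CPM (log2 fold change 0.66 ± 0.18 SE, edgeR adjusted p = 0.00673), and Nfil3 fell from 12.7 ± 2.61 to 3.18 ± 0.436 CPM. The hour of collection is not given in the sources used here.

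Most interferon-stimulated genes fell. Of 23 tested, 16 fell, 0 rose and 7 were not called, with a median of -1.56. Their summed level was 1047 to 1729 CPM in the week 2 libraries and 318 to 376 CPM in the week 3 libraries. Ifit2, which encodes an antiviral protein that binds viral RNA (chromosome 19, 34550550 to 34576534, GRCm38), was at 345, 209 and 179 CPM at week 2, then 8.63, 5.88 and 8.24 CPM at week 3 (log2 fold change -5.00 ± 0.51 SE, edgeR adjusted p = 1.66e-09). Ifit1, of the same family, was at 333, 240.3 and 233 CPM at week 2, then 42.4, 26.05 and 25.6 CPM at week 3 (log2 fold change -3.10 ± 0.36 SE, edgeR adjusted p = 3.18e-08). Zbp1, a sensor of Z-form nucleic acid, was at 61.8, 28.2 and 30.7 CPM at week 2, then 2.42, 2.28 and 2.81 CPM at week 3 (log2 fold change -4.00 ± 0.34 SE, edgeR adjusted p = 2.24e-11). Week 2 sample 1 had the highest value of all 3, and no week 3 library reached any week 2 value in the 3 genes.

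Among the 16 members that fell were the transcription factor genes Irf7 and Irf1. Irf7 fell from 121 ± 47.5 to 38.5 ± 5.69 CPM and Irf1 from 132 ± 36.2 to 74.2 ± 4.24 CPM. Mx1, Gbp4 and Ifit1bl1 had higher means at week 3 (1.47 ± 0.359, 2.76 ± 0.966 and 18.04 ± 7.3 CPM against 1.17 ± 0.657, 1.41 ± 0.242 and 11.1 ± 3.85 CPM) and were not called. Week 3 held the lowest duodenal mean of both Ifit1 and Zbp1 over the 8 ages: duodenal Ifit1 averaged 119.9 ± 9.08 CPM at day 8 and 380.5 ± 66.8 CPM at week 4, and Zbp1 12.6 ± 1.85 CPM at day 8 and 124 ± 9.31 CPM at week 4.

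The interferon-stimulated response element is the promoter motif through which IRF factors act on such genes, and it is shown here because most of the list fell together. In RefSeq promoters of GRCm38.p6, from 250 bases before to 50 bases after the start, the motif searched was a pair of GAAA separated by any 2 bases, which reads as a pair of TTTC on the other strand. Both strands were searched and overlapping matches were counted. It was found in 1131 of 32851 promoters, 3.443%, and in at least 1 promoter of 3.993% of genes. Of the 23 list genes 16 had a promoter entry, 11 of them with the motif. Of the genes that fell 12 had an entry, 7 of them with it. The genes with an entry that were not called, Bst2, Gbp2, Ifit1bl1 and Stat2, all held it. The start is that of the promoter entry; for Ifit3 it lies inside the range that RefSeq gives for the whole gene, so the stretch shown is within that range. A match is a description of the letters and not a site shown to be used. The stretches that hold the matches in 3 of the genes that fell follow, 5′ to 3′ on the gene's strand, with motif letters in capitals.
Isg15 (chr4:156200855-156200916, minus strand, 3 overlapping matches starting 66 to 78 bases before the start): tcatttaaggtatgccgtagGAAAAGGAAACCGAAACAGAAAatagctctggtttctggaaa
Ifit1 (chr19:34640765-34640833, plus strand, 2 matches starting 85 and 104 bases before the start): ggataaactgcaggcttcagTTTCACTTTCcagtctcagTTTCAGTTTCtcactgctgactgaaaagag
Ifit3 (chr19:34583353-34583436, plus strand, 2 matches starting 122 and 156 bases before the start): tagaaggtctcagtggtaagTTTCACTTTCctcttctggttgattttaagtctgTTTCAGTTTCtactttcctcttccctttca
The ubiquitin-like gene Isg15 was at 28.3, 15.2 and 11.9 CPM at week 2, then 3.56, 3.78 and 3.63 CPM at week 3 (log2 fold change -2.33 ± 0.40 SE, edgeR adjusted p = 3.75e-05). Ifit3, of the Ifit family, was at 78.6, 34.2 and 33.2 CPM at week 2, then 8.63, 5.32 and 6.29 CPM at week 3 (log2 fold change -2.84 ± 0.48 SE, edgeR adjusted p = 2.43e-05). Both lay lower in every week 3 library. Ifit2, which had the largest fall of the list, held no match within its window.

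Other defence genes moved in both directions. Of 23 innate epithelial defence genes tested, 6 rose and 3 fell. The calls were 39.1% of the list, against 15.4% of all genes. The median was 1.14, or 0.62 without Retnlb, which had too few counts at both ages for a fold. Reg3a, a secreted lectin of the Reg family, was at 1.35, 2.21 and 1.44 CPM at week 2, then 16.5, 53.5 and 52.9 CPM at week 3 (log2 fold change 4.62 ± 0.44 SE, edgeR adjusted p = 4.08e-10). Il18, an epithelial cytokine, was at 5.64, 7.04 and 5.77 CPM at week 2, then 43.6, 56.8 and 40.6 CPM at week 3 (log2 fold change 2.93 ± 0.34 SE, edgeR adjusted p = 2.39e-08). Neither overlapped between the ages. Tlr5, the flagellin receptor gene, fell from 14.2 ± 0.855 to 3.05 ± 0.431 CPM (log2 fold change -2.22 ± 0.29 SE, edgeR adjusted p = 2.76e-07). Reg3b went from 8.53 ± 2.87 to 44.98 ± 10.1 CPM, and its call was lost without week 2 sample 3. Of 10 genes of MHC class II presentation, edgeR called 0, also at an unadjusted p under 0.05, and DESeq2 called 0, while the fit of the 6 libraries alone called 6 that fell; the master regulator Ciita was at 4.04, 2.72 and 2.97 CPM at week 2, then 1.86, 2.24 and 1.93 CPM at week 3.

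Of 13 imprinted growth genes tested 4 fell and 0 rose, with a median of -0.74. The falls were 30.8% of the list, against 8.98% of all genes that fell and 15.4% called. Plagl1, a growth-restraining transcription factor gene, was at 58.7, 45.6 and 48.9 CPM at week 2, then 2.72, 0.385 and 1.21 CPM at week 3 (log2 fold change -5.08 ± 0.53 SE, edgeR adjusted p = 3.42e-09). Cdkn1c, encoding the cell cycle inhibitor p57, was at 233, 124 and 144 CPM at week 2, then 27.4, 22.7 and 18.1 CPM at week 3 (log2 fold change -2.88 ± 0.32 SE, edgeR adjusted p = 1.09e-08). Week 3 libraries were lower throughout in both. Igf2, the fetal growth factor gene, fell from 68.4 ± 16.4 to 25.4 ± 7.05 CPM, a call lost under 6 of 17 alternatives, among them leaving out week 2 sample 1, 2 or 3 or week 3 sample 2 or 3, and H19 was not called (12.7 ± 5.6 and 4.71 ± 7.08 CPM; log2 fold change -1.40 ± 0.58 SE, edgeR adjusted p = 0.102).

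Of 24 cell cycle and replication genes edgeR called 0, with 0 at an unadjusted p under 0.05, a median of 0.20 and 0 called by DESeq2; the fit without the 8 libraries of days 4 and 6 called 6 that rose. Mki67, a marker of cycling cells, was at 247, 394 and 381 CPM at week 2, then 450.4, 299 and 411 CPM at week 3 (log2 fold change 0.18 ± 0.40 SE, edgeR adjusted p = 0.819). The ages overlapped. Among 12 stem and crypt base genes 2 fell, Sox9 (73.2 ± 18.6 to 43.7 ± 10.7 CPM) and Axin2 (112 ± 15.96 to 69.7 ± 2.49 CPM). That was 16.7% of the list called, near the 15.4% of all genes called in either direction. Adjusted p reached 0.212 for Sox9 and 0.133 for Axin2 over the alternatives. The Sox9 call was lost without week 2 sample 2 or 3 or week 3 sample 1 or 2, and the Axin2 call without week 2 sample 2 or 3 or week 3 sample 1, 2 or 3. Without the 8 libraries 7 members fell. Lgr5, the crypt stem cell marker, was not called (41.02, 86.6 and 77.6 CPM at week 2, then 33.3, 44.8 and 39.8 CPM at week 3; log2 fold change -0.80 ± 0.34 SE, edgeR adjusted p = 0.106).

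Secretory lineages changed in part. Of 13 goblet cell genes tested 4 rose and 0 fell, with a median of 0.50. The calls were 30.8% of the list, against 15.4% of all genes in either direction and 6.43% that rose. Zg16, a secreted mucus lectin, was at 179, 84.4 and 91.9 CPM at week 2, then 1003, 1013 and 798 CPM at week 3 (log2 fold change 2.99 ± 0.68 SE, edgeR adjusted p = 0.00155). Agr2, a mucin-folding gene, was at 99.2, 111 and 112 CPM at week 2, then 211, 273 and 299.9 CPM at week 3 (log2 fold change 1.28 ± 0.21 SE, edgeR adjusted p = 2.07e-05). Each week 3 library exceeded each week 2 library in both genes. Muc2, the main mucin, was not called (194, 206 and 172 CPM at week 2, then 474, 257 and 392 CPM at week 3; log2 fold change 0.98 ± 0.41 SE, edgeR adjusted p = 0.111). Of 19 Paneth cell genes 3 rose, Lyz1, Defa29 and Defa30, with a median of 0.73 and 6 rises without the 8 libraries. That was 15.8% of the list called, near the 15.4% of all genes called in either direction. Defa29, an alpha-defensin gene, was at 2.94, 5.77 and 3.35 CPM at week 2, then 18.1, 28.1 and 19.2 CPM at week 3 (log2 fold change 2.44 ± 0.37 SE, edgeR adjusted p = 3.59e-06). Lyz1, the Paneth lysozyme, was at 148, 329.7 and 236 CPM at week 2, then 479.9, 681 and 477 CPM at week 3 (log2 fold change 1.20 ± 0.38 SE, edgeR adjusted p = 0.0277), a call lost without week 2 sample 1 or 3 or week 3 sample 2. The call of Defa30 was lost without week 2 sample 1 or 3 or week 3 sample 1 or 2. Alpha-defensin genes are near-identical, so their estimated counts are uncertain. Among 18 enteroendocrine genes Pyy fell from 4.14 ± 1.55 to 0.332 ± 0.17 CPM and Gcg from 15.3 ± 4.01 to 6.72 ± 2.15 CPM. They were the only calls, 11.1% of that list and below the 15.4% of all genes. The shared hormone granule gene Chga was not called (91.8 ± 18.6 and 76.4 ± 6.35 CPM). Among 14 tuft cell genes, Sucnr1, the succinate receptor, fell from 4.27 ± 1.27 to 0.482 ± 0.041 CPM while Dclk1 was not called (9.61 ± 2.66 and 9.38 ± 0.684 CPM). Sucnr1 was the only call, 7.14% of that list and below the 15.4% of all genes.

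Markers of other cell types were low and mostly not called. In the T cell, B and plasma cell and macrophage lists 6.25%, 15.4% and 6.25% were called. None of these shares exceeded the 15.4% of all genes. Summed over their lists, T cell genes were at 14.3 to 21.02 CPM at week 2 and 15.3 to 38.1 CPM at week 3, with Gzmb as the 1 call of 16 (edgeR adjusted p = 0.0349, up to 0.327 over the alternatives). B and plasma cell genes were at 13.8 to 24.9 CPM and 10.02 to 14.2 CPM, with Igha and Jchain as 2 calls of 13, neither above 1.83 CPM in any library. The Igha call was lost without week 2 sample 2 or 3 or week 3 sample 1, 2 or 3, and the Jchain call without week 2 sample 1 or week 3 sample 1. Macrophage genes were at 133 to 181 CPM and 64.6 to 92.2 CPM. Csf1r was the 1 call of 16 in that list, with 121, 78.5 and 84.8 CPM at week 2, then 20.7, 18.3 and 14.2 CPM at week 3 (log2 fold change -2.42 ± 0.39 SE, edgeR adjusted p = 1.26e-05), while the macrophage genes Adgre1 (3.3 ± 1.16 and 3.31 ± 1.81 CPM) and C1qa (6.86 ± 1.06 and 6.04 ± 1.38 CPM) were not called. The part of these cells in the results was not tested.

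In the nerve, muscle and liver lists too, calls were limited to single genes. The nerve, smooth muscle and pancreatic lists had 14.3%, 7.69% and 10.5% called, below the 15.4% of all genes. The small liver and fat cell lists had 37.5% of 8 and 50% of 4 genes called. Neuron and glia genes summed to 57.1 to 79.3 CPM and 18.1 to 21.98 CPM, with S100b and Ret as the members that lost most. S100b, a glial calcium-binding protein, was at 22.3, 11.001 and 15.7 CPM at week 2, then 1.22, 0.7002 and 0.541 CPM at week 3 (log2 fold change -4.28 ± 0.65 SE, edgeR adjusted p = 4.73e-06), lower in every week 3 library. Ret, a growth factor receptor of enteric neurons, went from 42.4 ± 6.94 to 10.7 ± 0.77 CPM. The glial gene Sox10 stayed at or under 0.142 CPM. The 1 call of 13 in smooth muscle was Mylk (325 ± 48.5 to 179 ± 27.5 CPM), lost without week 2 sample 1 or week 3 sample 1 or 2. Of 8 liver genes Serpina1a was at 225, 127 and 155 CPM at week 2, then 16.4, 11.3 and 10.2 CPM at week 3 (log2 fold change -3.74 ± 0.43 SE, edgeR adjusted p = 2.35e-08). Ttr, the thyroid hormone carrier, fell from 43.6 ± 4.995 to 2.78 ± 0.712 CPM. Apoa2 rose from 0.137 ± 0.0705 to 0.724 ± 0.314 CPM, a call lost without week 2 sample 3 or week 3 sample 2. Alb, the albumin gene, stayed at or under 0.327 CPM in all 6 libraries. Pancreatic acinar genes summed to 51.1 to 59.1 CPM and 37.02 to 47.999 CPM; Ctrb1 fell from 26.3 ± 1.89 to 3.16 ± 0.456 CPM, a call lost under limma (adjusted p = 0.0611 and 0.083). Pnlip rose to 0.874 ± 0.569 CPM, a call lost without week 2 sample 2 or 3 and under DESeq2 (adjusted p = 0.158). Of the 4 fat cell genes Cidec fell (123 ± 25.6 to 54.2 ± 1.46 CPM) and Plin1 rose (0.043 ± 0.0252 to 0.386 ± 0.191 CPM), a call lost without week 2 sample 3 or week 3 sample 3. EdgeR called 0 of 16 fibroblast, 12 endothelial, 9 red blood cell, 10 mast cell and eosinophil and 7 stomach genes; at an unadjusted p under 0.05 there was 1, in the mast cell list, and DESeq2 called 0. The fit of the 6 libraries alone called 5 falls in the fibroblast list, 3 in the mast cell list, 2 in the red blood cell list, 1 in the stomach list, and 1 fall and 1 rise in the endothelial list. Red blood cell genes summed to 534 to 564 CPM and 299 to 1049.6 CPM.

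**Figure D3:**
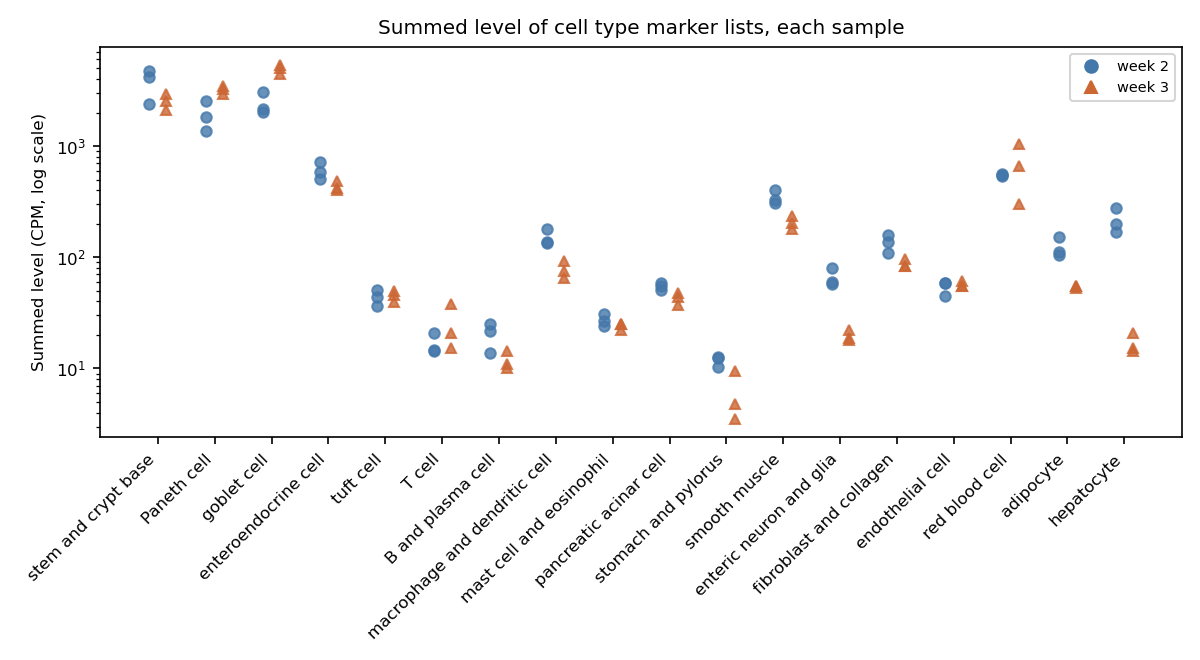
Summed level in CPM (log scale) of 18 lists of cell type markers in each week 2 library (circles) and week 3 library (triangles) of duodenum. The goblet and Paneth cell lists are higher at week 3 with no overlap. The enteroendocrine, macrophage, pancreatic, stomach, smooth muscle, neuron and glia, fibroblast, adipocyte and hepatocyte lists are lower with no overlap. The other lists, such as endothelial and tuft cell, overlap. Of all genes tested, 40.4% did not overlap, and a sum can rest on a single gene, such as Csf1r in the macrophage list.

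Of the remaining large changes, Pmp22, a membrane protein first known from myelin, was at 0.603, 0.762 and 0.853 CPM at week 2, then 127, 186 and 145 CPM at week 3 (log2 fold change 7.67 ± 0.91 SE, edgeR adjusted p = 5.88e-08). Clca4a, a secreted metalloprotease-like modulator of chloride conductance, was at 5.18, 9.77 and 1.33 CPM at week 2, then 458, 640.1 and 504 CPM at week 3 (log2 fold change 6.64 ± 0.99 SE, edgeR adjusted p = 4.8e-06). Slc5a12, a sodium-coupled lactate carrier, was at 0.993, 1.71 and 0.853 CPM at week 2, then 107, 108 and 107 CPM at week 3 (log2 fold change 6.52 ± 0.65 SE, edgeR adjusted p = 1.16e-09). All 3 were low in every week 2 library and high in every week 3 library. Kalrn, a guanine nucleotide exchange factor, and Ly6m, of the Ly6 surface family, rose from 1.05 ± 0.166 and 2.52 ± 0.198 to 76.9 ± 7.83 and 150.04 ± 46.6 CPM (edgeR adjusted p = 2.33e-14 and 4.74e-11). Gpx3, the secreted glutathione peroxidase, was at 3276, 2359.8 and 2405 CPM at week 2, then 369, 106 and 179.7 CPM at week 3 (log2 fold change -3.62 ± 0.67 SE, edgeR adjusted p = 0.00011), lower in every week 3 library. Selenop, the selenium carrier protein, went from 3581 ± 992 to 1660.05 ± 424 CPM, a call lost under 5 of 17 alternatives, among them leaving out week 2 sample 1 or week 3 sample 1 or 3.

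At week 4 several of the genes named above stood nearer to their week 3 level than to their week 2 level. Duodenal Sis averaged 25.1 ± 2.21 CPM at day 8 and 4527 ± 839 CPM at week 4. Fcgrt averaged 1618 ± 88.8 CPM and 123 ± 22.7 CPM at the same ages. Arg2 averaged 7.64 ± 1.23 CPM at day 8 and 422 ± 67.6 CPM at week 4, and Cyp3a11 9.05 ± 0.676 CPM and 1279.6 ± 149 CPM. The week 3 mean of Cyp3a11 was higher, at 2015 ± 844 CPM. Each of these 4 genes had its week 3 mean nearer to week 4 than to week 2. The genes Ifit1, Zbp1, Fkbp5 and Zbtb16 did not follow this pattern. Prdm1 stayed low, at 18.8 ± 4.56 CPM at week 4.

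**Figure D4:**
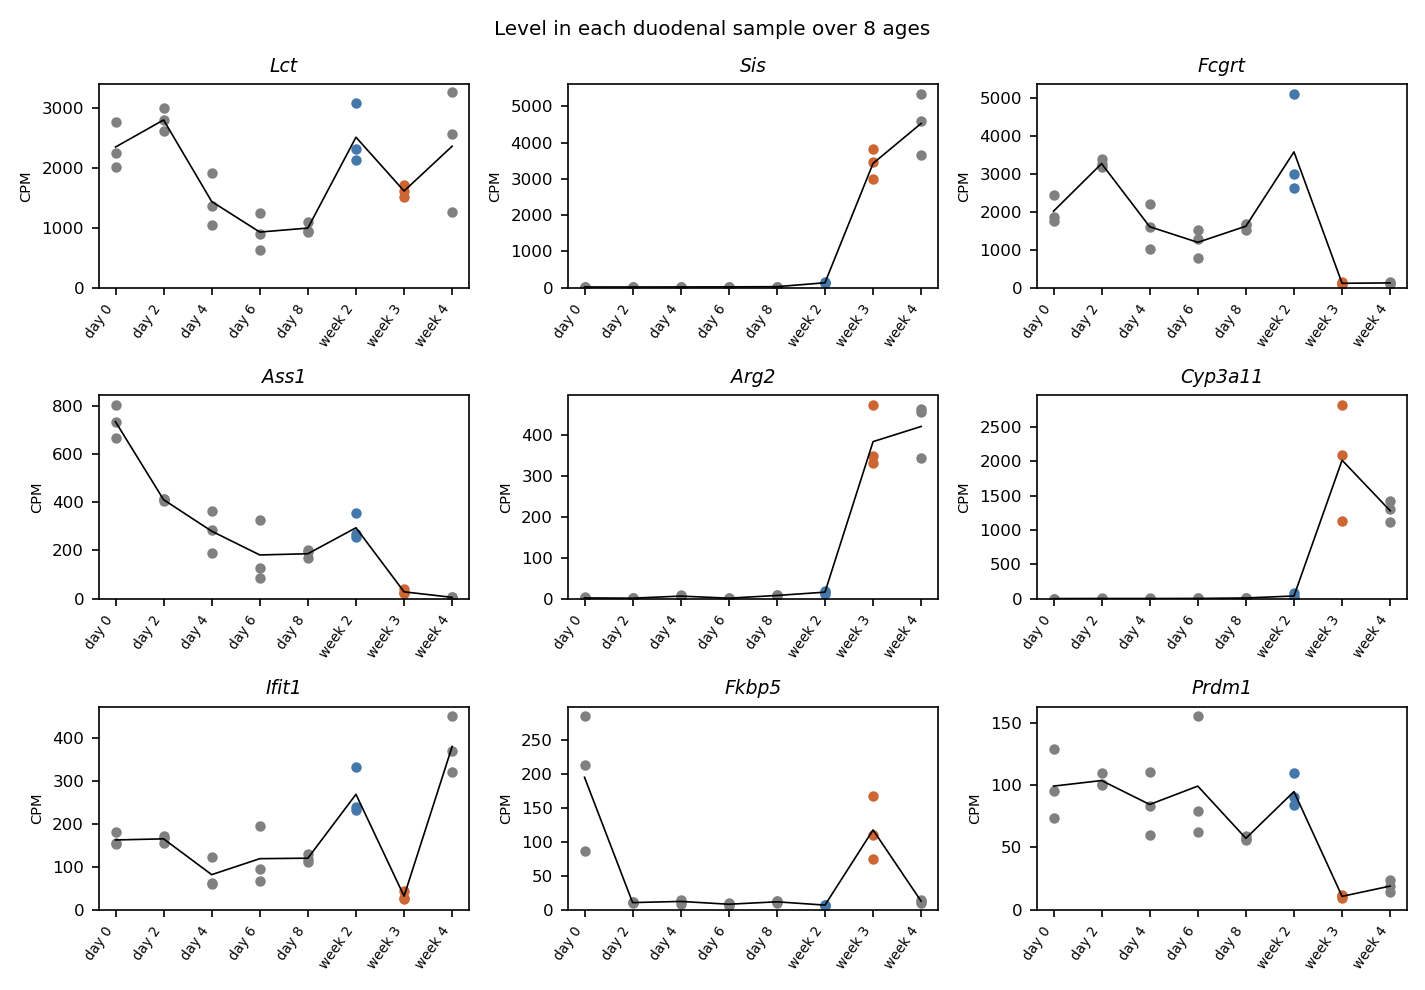
Level in CPM of 9 genes in each duodenal library over the 8 ages, with the mean as a line and week 2 and week 3 in colour. Sis, Arg2 and Cyp3a11 step up and Fcgrt, Ass1 and Prdm1 step down between week 2 and week 3, and they stay on that side of week 2 at week 4. From week 3 to week 4 the mean of Cyp3a11 is lower and that of Prdm1 higher. Ifit1 dips and Fkbp5 peaks at week 3.

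The ileum went through the same ages with its own samples. There 4980 genes were called between week 2 and week 3 (23.8%), and 2443 genes were called with the same sign in both regions, which made up 75.9% of calls in the duodenum and 49.1% of those in the ileum. The change itself differed between regions in 113 genes (0.541%), of which 68 were among the duodenal calls; the number was 54 to 112 with single libraries left out and 672 without the 8 libraries of days 4 and 6. Sis rose more in the ileum, by 3.07 more on the log2 scale (edgeR adjusted p = 0.00087), from 20.6 ± 3.32 to 4441 ± 146 CPM (SD, n = 3 each). Dpep1 and Ggt1 rose more in the ileum by 2.52 and 3.61 (edgeR adjusted p = 0.00155 and 1.4e-05). For the uptake genes Fcgrt and Dab2 the difference between regions was 0.23 ± 0.43 SE and -0.26 ± 0.74 SE and was not called.

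**Figure D5:**
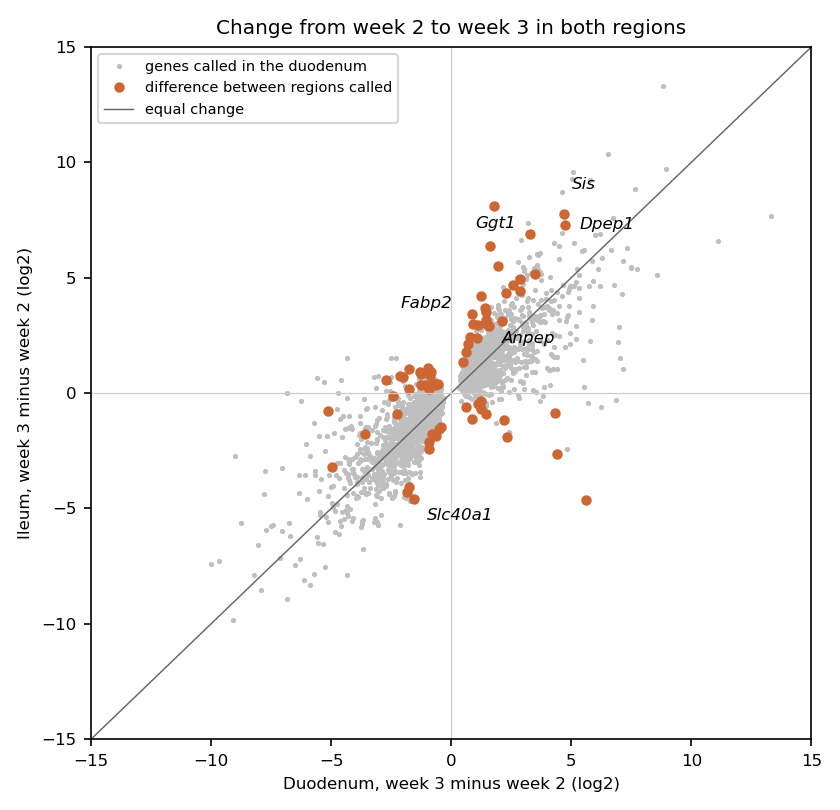
Log2 fold change from week 2 to week 3 in ileum (vertical axis) against duodenum (horizontal axis) for the 3220 genes called in the duodenum, with the 68 whose change differed between regions in colour and the line of equal change. Sis, Dpep1, Ggt1, Fabp2 and Anpep lie above the line and Slc40a1 below it.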

How the data were processed

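Total RNA of mouse bowel was sequenced, and the values used were the authors' estimated counts per gene, summarised from transcripts per the name of the deposited table. The submitters' processing notes name STAR 2.6.1d, Salmon 0.14.2, DESeq2 1.30.1 and the build mm10 without saying what each did. Estimated counts divide reads shared by near-identical genes by a model. The authors also deposited a normalized signal for 20 duodenal libraries, which are the estimated counts divided by 1 factor per library, used only in the limma alternatives. Gene symbols came from the deposited normalized tables, which pair 51106 of 54532 identifiers with a symbol, and gene positions from RefSeq for GRCm38.p6.

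Counts were already whole numbers and edgeR 4.0.16 (R 4.3.3) was used: filterByExpr over 16 groups left 20901 genes, libraries were scaled by TMM, and a robust quasi-likelihood model was fitted to all 48 libraries. The contrast was duodenum week 3 minus week 2, with Benjamini-Hochberg adjustment over all genes tested. The difference between regions was the contrast of that change in ileum and duodenum. The SE of a log2 fold change is its size over the root of the F statistic. The procedure was tested on simulated data. Depth was 27547646 to 59811501 counts per library. Errors and p-values draw on the spread between libraries within all 16 groups of the fit, not only within the 2 ages compared.

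The genes compared, the 38 lists and the tests were chosen with earlier results of these data known, so no list is independent evidence of its direction. Genes were named by a rule: the 10 largest rises and falls in fold among called genes whose log2 CPM averaged 3 or more, with no overlap between ages and no clone or predicted-gene name, the 8 largest rises and falls in CPM, and from each list its first member and up to 4 called members with the largest fold. Genes outside that rule were chosen after their values were seen: Abcb1a, Abcg2, Adgre1, Amn, Asl, Bdh1, C1qa, Cdx2, Cps1, Cpt1a, Ddx3y, Epcam, Fabp6, G6pc, Gata4, Gbp4, Gstm1, Gstm3, Hnf4a, Ifit1bl1, Insig1, Irf1, Irf7, Isg15, Khk, Lgmn, Mep1a, Mep1b, Mx1, Myh11, Otc, Pck1, Pdx1, Per1, Ppara, Prodh, Retnlb, Slc2a5, Slc6a19, Sox10, Tlr5, Tsc22d3, Txnip. Some genes that the rule names are not reported here. Alternatives were RLE size factors, no count filter or a mean count of at least 10, DESeq2 1.42.0, limma 3.58.1 on the log2 of the signal plus 1 or 0.1, other sets of libraries, each library left out, a sex index and a replicate block. The same-numbered libraries of the 2 ages were not treated as pairs.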

Additional observations from a re-analysis of the deposited data

Results flagged for a closer look

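Among the genes named by the rule, 6 changed by different amounts in duodenum and ileum between week 2 and week 3, by the test of the difference itself. Genes named outside the rule were not counted. Differences are the ileal minus the duodenal log2 fold change. Sis, the sucrase-isomaltase gene, differed by 3.07 (edgeR adjusted p = 0.00087), with 3426 ± 408 CPM in duodenum and 4441 ± 146 CPM in ileum at week 3 (SD, n = 3 each). Ggt1 differed by 3.61 (edgeR adjusted p = 1.4e-05) and started lower in the ileum, at 2.74 ± 0.268 CPM against 34.9 ± 19.2 CPM. Fabp2 differed by 2.58 (edgeR adjusted p = 6.49e-05), going from 684 ± 139 to 7360.1 ± 2504 CPM in ileum. Dpep1 differed by 2.52 (edgeR adjusted p = 0.00155), going from 3.07 ± 0.964 to 475 ± 115 CPM in ileum. These 4 differences kept their call in all 20 alternatives.

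Anpep differed by 1.47 (edgeR adjusted p = 0.0337), going from 767 ± 66.3 to 6043 ± 1527 CPM in ileum; the call held in 7 of 20 alternatives and was lost with all but 1 of the single libraries left out. Slc40a1, the iron exporter gene, differed by -3.05 (edgeR adjusted p = 0.0158), falling further in ileum, from 737 ± 68.2 to 30.6 ± 21.1 CPM; the call held in 14 of 20 alternatives and was lost without the count filter, and without duodenum week 2 sample 2 or 3, duodenum week 3 sample 1 or ileum week 3 sample 2 or 3.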

How the results depend on the processing

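All 116 genes that the rule named and that were called kept their direction in every alternative run, and 91 kept the call in all of them. The count of called genes, 3220 with all libraries, was 5063 in the fit of the 6 libraries alone (3021 of them among the 3220), 5437 without the 8 libraries of days 4 and 6 (3217 shared), and 6216 and 6065 with limma on the log2 signal plus 1 and plus 0.1. It was 2290 to 2562 with each library left out and 3204 with the sex index. A replicate block on sample numbers gave 3031. Same-numbered libraries of the 2 ages had deviations correlated at 0.143, -0.126 and 0.264 over 12211 genes. For differently numbered libraries the values were -0.321 to 0.186. With 3 libraries per age, these values cannot decide whether the numbers pair the libraries. The share of calls that rose was 36.76% to 50.25% over these alternatives, against 41.7%. The count of genes whose change differed between regions, 113, was 69 without the count filter, 584 in the fit of the compared groups alone, 672 without the 8 libraries (40.6% of them more positive in ileum, against 70.8%), 284 with DESeq2, and 54 to 112 with each library left out, lowest without ileum week 2 sample 2 and at or under 75 without any library other than duodenum week 2 sample 2 or ileum week 3 sample 1. The cause of these shifts was not tested.

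Of 27 genes that the rule named and that were not called, 14 were called with the same sign in at least 1 alternative. Slc11a2 and Lgr5 were called in 5 of 17 alternatives, Apob and Muc2 in 4 and H19 in 3. Of the 27 genes, 8 changed sign in some alternative. Dclk1 had log2 fold changes of 0.0196 with a mean count of at least 10, 0.00971 without the 8 libraries and 0.0146 with the sex index. Gkn1 gave 0.0124, 0.831 and 0.428 without the 8 libraries, with the sex index and with the replicate block, and Rbp2 gave 0.0262 with a mean count of at least 10 and 0.0191 without the 8 libraries. With each library left out, the ranges were -0.109 to 0.411 for Acta2, -0.382 to 0.0153 for Alb, -0.283 to 0.477 for Cd3d, -0.157 to 0.214 for Dclk1, -6.09 to 6.04 for Gkn1, -0.287 to 0.777 for Hba-a1, -0.00423 to 0.338 for Mki67 and -0.1603 to 0.119 for Rbp2. Cell type markers at or under 1 CPM rest on few counts, and their changes are limited by depth.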

Other observations

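Some of the sharpest changes lay outside the lists, and the genes in this paragraph were chosen after their values were seen. Fgf15, a hormone gene best known from the ileum, was at 9.47, 31.4 and 15.2 CPM at week 2, then 0.0537, 0 and 0.0258 CPM at week 3 (log2 fold change -9.03 ± 1.59 SE, edgeR adjusted p = 6.88e-05), and was close to absent from every week 3 library. Krt20, a keratin of differentiated villus cells, was at 194, 113 and 138 CPM at week 2, then 1107, 1174 and 973 CPM at week 3 (log2 fold change 2.87 ± 0.24 SE, edgeR adjusted p = 9.91e-12), with no overlap. In the ileum Krt20 rose by 2.07 more on the log2 scale (edgeR adjusted p = 0.000286). Vil1, the villin gene of the microvillus core, was at 1069.9, 859 and 873 CPM at week 2, then 1799.8, 1708 and 1651 CPM at week 3 (log2 fold change 0.88 ± 0.18 SE, edgeR adjusted p = 0.000339), while Epcam was not called. Sult6b2, a sulfotransferase family gene, was at 2.45, 4.65 and 3.19 CPM at week 2, then 215, 186 and 101 CPM at week 3 (log2 fold change 5.61 ± 0.95 SE, edgeR adjusted p = 3.64e-05). In the ileum Sult6b2 fell from 32.2 ± 7.87 to 1.29 ± 0.639 CPM, a difference between regions of -10.24 on the log2 scale (edgeR adjusted p = 5.18e-05).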
